A study of Mus musculus with 8 samples.

Results

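The cAMP signaling genes followed here are Pde3b, Pde4a, Pde4b, Pde4d, Pde7a, Prkaca, Prkar1a, Creb1, Crem and Adora2a, 10 of the 49212 genes in the count files. Pde3b was chosen by its measured values in KO and WT libraries of these same data, so its values are a description with no test. The other 9 were named by their role around protein kinase A, with earlier results of these data known. Their tests come from fits over the whole gene table. All 10 passed the filter on low counts in each comparison.

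Cyclic AMP is an intracellular messenger made by adenylyl cyclases when receptors coupled to Gs, such as the adenosine receptor Adora2a, are engaged. It frees the catalytic subunits of protein kinase A (PKA) from their regulatory subunits, and PKA phosphorylates the transcription factor CREB. Phosphodiesterases break the messenger down. Regulatory T (Treg) cells are known for a high cAMP content, and their lineage factor Foxp3 is known to repress Pde3b.

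The study sorted effector Treg (eTreg) cells from C57BL/6 mice that carried B16-OVA melanoma. The WT mice were FoxP3YFP-Cre, and the KO mice were Prdm1fl/flFoxP3YFP-Cre, in which Cre made from the Foxp3 locus removes floxed Prdm1 (the gene of Blimp1). Cre and YFP were thus carried by the controls too. Tumor cells were injected subcutaneously on day 0, NP-OVA was given in CFA on day 0 and in IFA on day 7, and tumors were kept to at most 1.5 cm3. Cells were gated as CD45+CD44+YFP+CD4+CD3+ from spleen (splenic eTreg) and from tumor (TIL eTreg). Spleens were mashed and enriched for CD4+ cells on beads, while tumors were digested with collagenase and Dispase and spun on a density gradient. Tissue and cell preparation therefore cannot be told apart in tumor against spleen. Each of the 4 groups (KO spleen, WT spleen, KO tumor, WT tumor) had 2 RNA-seq libraries made from ultra-low input RNA with random hexamers after removal of ribosomal RNA. The study's methods give, for its mice in general, an age of 5 to 10 weeks and both sexes. Pooling and the sex of each library are not given in the sources used here. The labels do not say that replicates came from separate animals, so the p-values measure the spread between these samples.

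Total counts were 43903859 and 35076472 in the KO splenic libraries and 30539772 and 28269666 in the WT splenic libraries. They were 35318365 and 27834676 in the KO TIL libraries and 29724913 and 30854014 in the WT TIL libraries. Levels are CPM, counts divided by a library's total and scaled by TMM, always with replicate 1 before replicate 2. A count of 3, taken as the floor, equals 0.0644 to 0.112 CPM, and such floors cover counting error only. Replicates differed by more than sampling noise, since the chi-square between them, divided by its degrees of freedom, ran from 37.2 in KO spleen to 344 in KO tumor.

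Prdm1, the floxed gene, was not reduced in the splenic libraries labelled KO, at 40.7 and 53.4 CPM beside 54.1 and 21.0 CPM in WT. In tumor, KO TIL eTreg had 90.7 and 75.1 CPM of it, against 108 and 192 CPM for WT TIL eTreg. These counts are summed over all exons, so they do not isolate the floxed ones. Foxp3, which marks the Treg lineage and drives the YFP used in the sort, was at 10.2 and 2.99 CPM in KO TIL libraries, 25.5 and 60.5 CPM in WT TIL libraries and 43.1 to 69.6 CPM in spleen. Cd4 was at 148 and 66.2 CPM in KO TIL libraries and at 384 to 1086 CPM in the other 6. Cd8a was at 217 and 1214 CPM in KO TIL libraries, 71.8 and 9.69 CPM in WT TIL libraries and 2.33 to 5.96 CPM in spleen. The KO TIL libraries therefore stand apart from a gate on CD4+ YFP+ cells. Larger differences of the 10 genes resting on these libraries are given without each of them, or as ranges with each library left out. In such bulk samples, fewer cells of a type and less RNA per cell cannot be told apart.

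Marker lists of other cells moved with the KO and WT labels in TIL eTreg. Both CD8 T cell genes had counts in every library, and their sum was 406 and 2222 CPM in KO TIL, 148 and 48.3 CPM in WT TIL and 15.0 to 30.7 CPM in spleen. Cd8a was the more abundant in KO TIL libraries and Cd8b1 in the rest. The 6 natural killer (NK) cell genes summed to 71.9 and 113 CPM in KO TIL libraries, to 10.1 and 1.92 CPM in WT TIL libraries and to 9.53 to 15.1 CPM in spleen, where nearly all of it was Klrb1c. Klre1 led this list in the KO TIL libraries, and Ncr1, Klra8, Klra4 and Klra7 were at 0 in all splenic libraries. The 6 Treg identity genes summed to 761 and 1380 CPM in KO TIL libraries and to 6259 and 8815 CPM in WT TIL libraries, led by Ctla4, beside 1430 to 2318 CPM in spleen, with no gene at 0. The 5 CD4 T cell genes summed to 1172 and 3579 CPM in KO TIL libraries, 4259 and 5482 CPM in WT TIL libraries and 4583 to 5624 CPM in spleen.

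Neutrophil and fibroblast genes also moved with the KO and WT labels in TIL eTreg. The 5 neutrophil genes summed to 375 and 198 CPM in KO TIL, 65.7 and 5.16 CPM in WT TIL and 0.779 to 19.9 CPM in spleen, with S100a8 leading in the TIL libraries. The 5 fibroblast genes summed to 1.59 and 0.561 CPM in KO TIL, 4.99 and 16.1 CPM in WT TIL and 0.516 to 1.53 CPM in spleen, led in WT TIL by Col3a1. Melanoma and platelet genes were higher in tumor, and the macrophage sums differed widely between replicates. The 8 macrophage genes summed to 15301 and 1743 CPM in KO TIL, 3201 and 542 CPM in WT TIL and 287 to 2122 CPM in spleen, with Lyz2 the most abundant in all TIL libraries. The 6 melanoma genes summed to 3201 and 830 CPM in KO TIL and to 2078 and 1140 CPM in WT TIL, led by Tyrp1. They summed to 3.69 to 6.74 CPM in spleen, where Tyr and Slc45a2 were at 0. Platelet genes summed to 172 and 54.5 CPM in KO TIL, 256 and 34.3 CPM in WT TIL and at most 5.22 CPM in spleen, led in tumor by Pf4. Of the other lists, red cell genes ran from 82.4 to 3368 CPM, naive or memory T cell genes from 671 to 1760 CPM and B cell genes from 9.69 to 88.1 CPM. Adipocyte genes, checked because Pde3b is known from fat cells, ran from 2.02 to 25.4 CPM, led by Fabp4, with Lep at 0 in all libraries. For the results below that move with these lists, their part in the result was not tested.

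**Figure D1:**
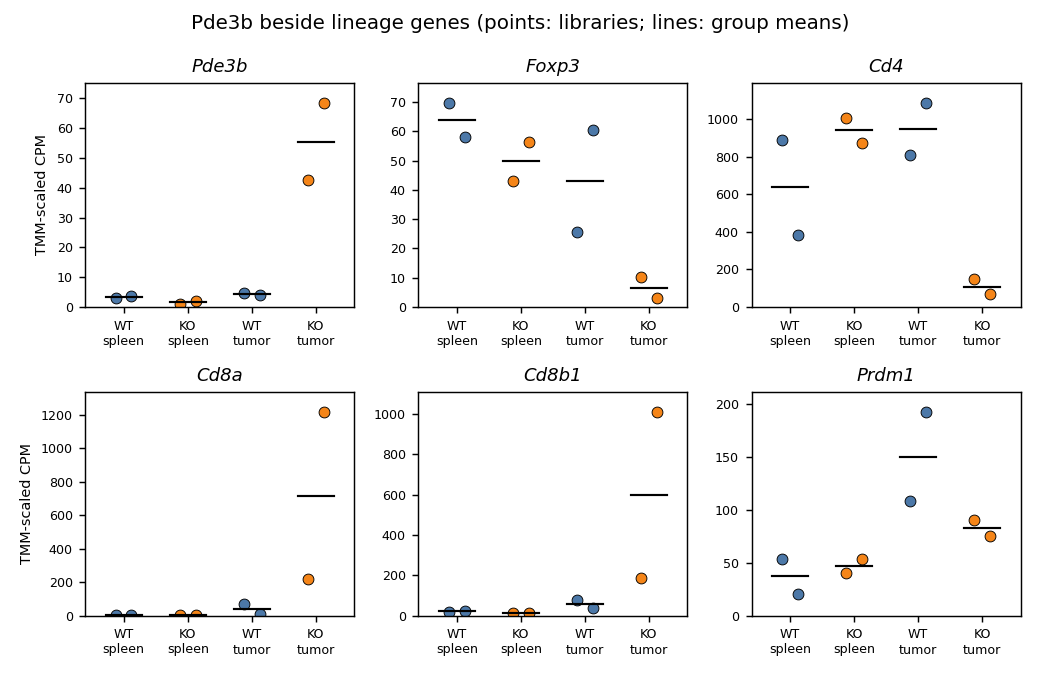
CPM of Pde3b, Foxp3, Cd4, Cd8a, Cd8b1 and Prdm1 in each of the 8 libraries (points; WT blue, KO orange), with the group mean as a black line. The KO TIL libraries have the highest Pde3b (42.6 and 68.4 CPM) and Cd8a (217 and 1214 CPM) and the lowest Cd4 (148 and 66.2 CPM).

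Adora2a, the Gs-coupled adenosine receptor through which extracellular adenosine raises cAMP in T cells, had overlapping levels in the 4 groups. It stood at 56.0 and 50.04 CPM in KO spleen, 51.7 and 30.7 CPM in WT spleen, 29.9 and 61.5 CPM in KO TIL and 40.3 and 53.2 CPM in WT TIL. Its log2 fold change between KO and WT was -0.04 (SE 0.43, adjusted p = 0.994) in TIL eTreg and 0.36 (SE 0.37, adjusted p = 0.878) in spleen. Between tumor and spleen it was 0.19 in WT and -0.21 in KO, with adjusted p = 0.860 and 0.747. Single libraries moved these values: in spleen it was 0.85 without WT splenic replicate 1 (adjusted p = 0.0112) and 0.04 without WT splenic replicate 2. Without these libraries it was 0.62 and -0.10 in WT tumor against spleen. In KO tumor against spleen it was -0.78 without KO TIL replicate 2 (adjusted p = 0.0250) and 0.21 without KO TIL replicate 1. In TIL eTreg, KO against WT, it was -0.66 without KO TIL replicate 2 and 0.39 without KO TIL replicate 1. Over all alternatives the adjusted p ran from 0.0112 to 0.99999 in spleen and from 0.0250 to 0.973 in KO tumor against spleen.

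Pde3b encodes a phosphodiesterase that hydrolyses cAMP and is inhibited by cGMP. In spleen it was near the lower end of the measured range, at 1.01 and 2.08 CPM in KO libraries (47 and 82 counts) and 2.99 and 3.78 CPM in WT libraries (100 and 106 counts). WT TIL libraries had 4.78 and 4.12 CPM (133 and 122 counts), and KO TIL libraries had 42.6 and 68.4 CPM (1341 and 1828 counts). Both KO TIL libraries were above all 6 others, while both KO splenic libraries were below the rest. Group means were 1.54 ± 0.756 CPM in KO spleen, 3.39 ± 0.557 CPM in WT spleen, 55.5 ± 18.2 CPM in KO tumor and 4.45 ± 0.468 CPM in WT tumor (SD, n = 2 each).

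The Pde3b difference between KO and WT thus had opposite signs in the 2 tissues, with a log2 fold change of 3.64 (SE 0.41) in TIL eTreg and -1.14 (SE 0.58) in spleen. With each library left out in turn, these ran from 3.24 to 3.94 and from -1.74 to -0.68. Without KO TIL replicate 2, which has the higher Cd8a, the TIL value was 3.24, and without KO TIL replicate 1 it was 3.94. Tumor against spleen, the log2 fold change was 5.17 (SE 0.53) in KO and 0.39 (SE 0.63) in WT libraries. With each library left out, these ran from 4.77 to 5.82 and from 0.25 to 0.61. Foxp3 was lowest and the CD8 and NK cell sums were highest in the same KO TIL libraries, and their part in the result was not tested.

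Pde4a, Pde4b and Pde4d belong to the PDE4 family, cAMP-specific enzymes that carry much of the cAMP breakdown in T cells. Pde4a was at 1.05 to 2.21 CPM in the splenic libraries, 6.45 and 8.49 CPM in KO TIL and 8.84 and 5.23 CPM in WT TIL. Pde4d was at 8.21 to 13.6 CPM in the splenic libraries, 23.2 and 49.4 CPM in KO TIL and 45.2 and 37.8 CPM in WT TIL. Pde4b was at 75.6 to 119 CPM in the splenic libraries, 698 and 280 CPM in KO TIL and 251 and 171 CPM in WT TIL. All 3 were thus higher in every TIL library than in any splenic one. Of them, Pde4d passed the test in WT libraries, where it rose by 1.93 log2 (SE 0.49, adjusted p = 0.0439). That call was lost without WT splenic replicate 2 (adjusted p = 0.117), WT TIL replicate 1 (0.357) or WT TIL replicate 2 (0.119), and with all 8 libraries in the fit (0.0552).

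The KO against WT difference of these PDE4 genes in TIL eTreg did not pass the test. For Pde4a and Pde4d the libraries overlapped, with log2 fold changes of 0.08 and -0.19. For Pde4b the log2 fold change was 1.21 (SE 0.52, adjusted p = 0.544), and both KO libraries lay above both WT libraries. That value rests on KO TIL replicate 1: it was 0.41 without this library and 1.71 without KO TIL replicate 2. KO TIL replicate 1 had the largest macrophage, melanoma and neutrophil sums and the lowest CD4 T cell sum, and their part was not tested.

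Pde7a, another cAMP-specific phosphodiesterase, ran from 12.5 to 16.2 CPM in the splenic libraries. It was at 13.8 and 30.9 CPM in KO TIL libraries and 6.25 and 7.02 CPM in WT TIL libraries, so the WT TIL libraries were the lowest of all 8. KO against WT in TIL eTreg, the log2 fold change was 1.75 (SE 0.52, adjusted p = 0.365), and it was 2.22 without KO TIL replicate 1 and 1.03 without KO TIL replicate 2. In spleen it was -0.29 (SE 0.35, adjusted p = 0.883), with both KO libraries below both WT libraries. Exons of Pde7a share 48 bp with Gm16093, which had at most 1 count in a library.

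**Figure D2:**
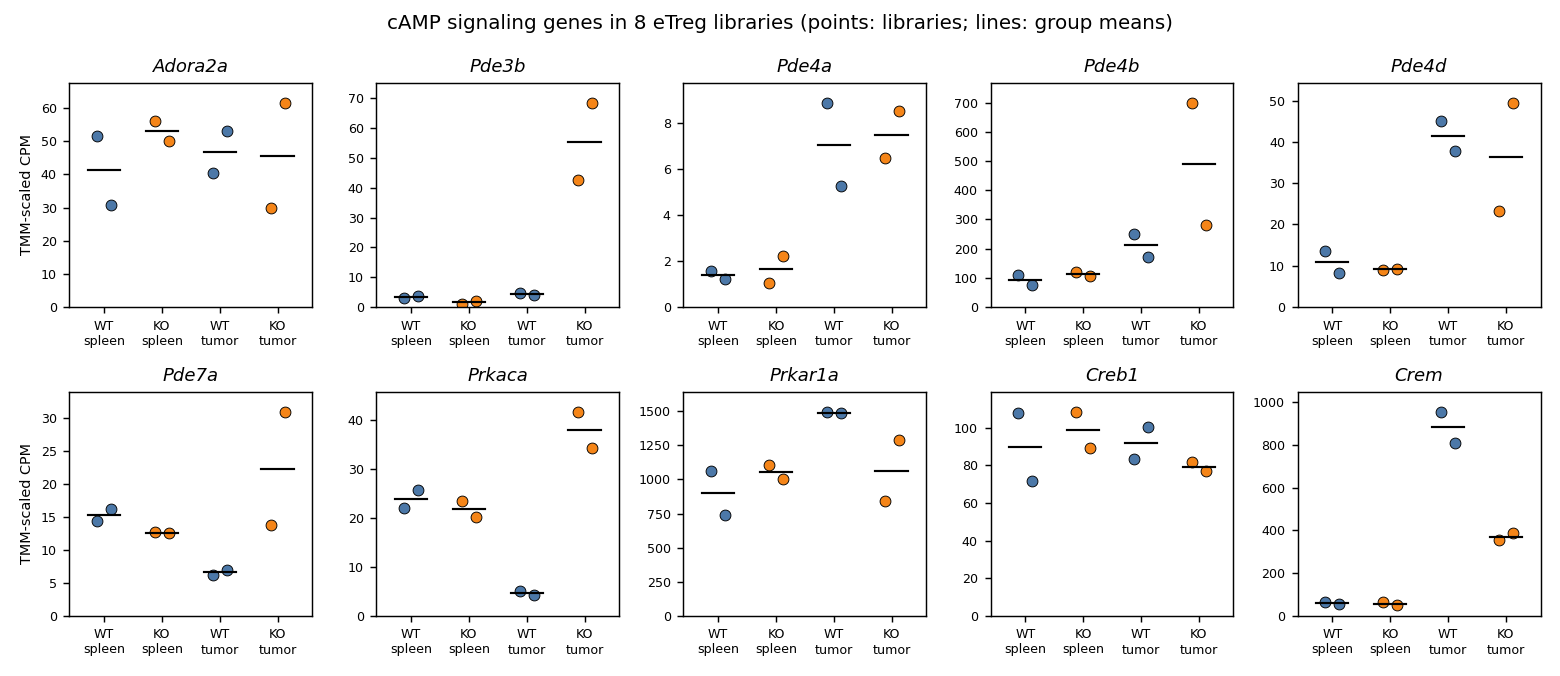
CPM of the 10 cAMP signaling genes in each of the 8 libraries (points; WT blue, KO orange), with the group mean as a black line. Pde3b is high in the 2 KO TIL libraries (42.6 and 68.4 CPM), Prkaca is low in the 2 WT TIL libraries (4.99 and 4.25 CPM) and Crem is higher in all TIL libraries than in the splenic ones.

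Prkaca encodes a catalytic subunit of PKA. It stood at 23.5 and 20.2 CPM in KO spleen, 21.9 and 25.8 CPM in WT spleen, 41.5 and 34.2 CPM in KO TIL and 4.99 and 4.25 CPM in WT TIL. The WT TIL libraries were the lowest and the KO TIL libraries the highest, and the splenic groups overlapped. Between WT TIL and WT spleen, Prkaca fell by 2.37 log2 (SE 0.52, adjusted p = 0.0261). That call depended on single libraries, as given below. Prkaca stayed at -2.47 to -2.20 log2 with each library left out. Between KO TIL and KO spleen its log2 fold change was 0.81 (SE 0.25, adjusted p = 0.113), and 0.64 or 0.97 without KO TIL replicate 1 or 2.

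The log2 fold change of Prkaca in TIL eTreg, KO against WT, was 3.03 (SE 0.36), with both KO libraries above both WT libraries. By edgeR it did not pass the test (adjusted p = 0.177), and by DESeq2 it did (adjusted p = 4.05e-08). It also passed by edgeR with no filter on low counts (adjusted p = 0.000258), with the replicate block (0.00927) and with all 8 libraries in the fit (0.0328). Over all alternatives the adjusted p ran from 4.05e-08 to 0.9999, the highest without WT TIL replicate 2. The log2 fold change was 2.88 without KO TIL replicate 1 and 3.15 without KO TIL replicate 2. In spleen it was -0.13 (SE 0.33, adjusted p = 0.924). The CD8, NK and Treg identity sums moved with the same libraries, and their part in the result was not tested.

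Prkar1a, the type I regulatory subunit that holds the catalytic subunits inactive, was the most abundant of the 10. It was at 1108 and 1005 CPM in KO spleen, 1060 and 739 CPM in WT spleen, 838 and 1291 CPM in KO TIL and 1493 and 1484 CPM in WT TIL. The WT TIL libraries were the highest, and the other 3 groups overlapped. Its log2 fold change in TIL eTreg, KO against WT, was -0.49 (SE 0.36, adjusted p = 0.780), and -0.85 to -0.21 with each library left out. In WT libraries, tumor against spleen, it was 0.73 (SE 0.47, adjusted p = 0.422).

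Creb1, the factor that PKA phosphorylates, was nearly flat. Its lowest level was 71.8 CPM in a WT splenic library and its highest 108 CPM in a KO splenic library. The largest of its 4 differences between groups was -0.30 log2 (SE 0.21, adjusted p = 0.395), in KO tumor against KO spleen.

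Crem, a CREB relative whose short repressor form ICER is induced by cAMP, followed tissue. It was at 65.1 and 50.6 CPM in KO spleen, 66.8 and 57.3 CPM in WT spleen, 357 and 385 CPM in KO TIL and 953 and 811 CPM in WT TIL. Every TIL library exceeded every splenic one, and the WT TIL libraries exceeded the KO TIL libraries. Crem rose with tumor by 3.83 log2 in WT (SE 0.50, adjusted p = 0.00268) and by 2.70 log2 in KO libraries (SE 0.24, adjusted p = 0.0373). The WT call held with each library left out, and the KO call was lost without KO splenic replicate 1 (adjusted p = 0.160) or KO splenic replicate 2 (adjusted p = 0.163). The KO call was also lost with the replicate block, and the KO value ran from 2.56 to 2.91 log2 with each library left out. Over all alternatives the adjusted p ran from 3.04e-14 to 0.0242 in WT and from 2.95e-12 to 0.163 in KO.

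The log2 fold change of Crem in TIL eTreg, KO against WT, was -1.25 (SE 0.30, adjusted p = 0.288), and -1.37 to -1.14 with each library left out. The gene counts do not separate ICER from the other forms. Exons of Crem share 103 bp with Gm6225, which had 11 to 119 counts per library beside 1606 to 26522 for Crem.

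KO against WT in TIL eTreg asks how the cAMP genes stand in tumor eTreg labelled as lacking Blimp1. Pde3b, Prkaca, Pde7a and Pde4b lay above both WT libraries in each KO library, and Crem, Prkar1a and Creb1 lay below. edgeR called 0 of the 9 genes other than Pde3b, beside 0% of the 15935 genes tested, of which 1573 had an unadjusted p under 0.05. A call needs an adjusted p under 0.05 and a log2 fold change over 1 in size. DESeq2 called 1 of the 9, Prkaca, higher and 0 lower, beside 3.32% of all genes higher and 1.14% lower (745 genes). Libraries did not overlap for 3 of the 9 genes higher and for 3 lower, beside 18% and 19.4% of all genes. The median log2 fold change of the 9 was -0.04, beside 0.04 over all genes tested.

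KO against WT in spleen asks the same of splenic eTreg, where Pde3b was lower in both KO libraries and the other genes lay close together. Their log2 fold changes ran from -0.29 (Pde7a) to 0.36 (Adora2a), with adjusted p from 0.878 to 0.938. edgeR called 0 of the 9 genes, beside 0% of the 16583 tested, of which 489 had an unadjusted p under 0.05. Without WT splenic replicate 1, 3972 genes were called, none of them among the 10. DESeq2 called 0 of the 9, beside 0.395% of all genes higher and 0.0472% lower (75 genes). Libraries did not overlap for 0 of the 9 genes higher and for 1 lower (Pde7a), beside 16.4% and 15.7% of all genes. The median of the 9 was 0.13, beside -0.02 over all genes.

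WT tumor against WT spleen asks how the cAMP genes differ between the tissues, each with its own cell preparation, when Blimp1 is intact. Crem and Pde4d rose in TIL eTreg, and Prkaca fell. edgeR called 2 of the 9 genes higher and 1 lower, beside 4.1% and 1.87% of all genes tested (981 genes). DESeq2 called 3 higher, with Pde4a added, and 1 lower, beside 6.31% and 3.29% of all genes. Libraries did not overlap for 5 of the 9 genes higher and for 2 lower, beside 25.1% and 27% of all genes. The median log2 fold change of the 9 was 0.73, beside -0.04 over all genes.

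The WT calls of Prkaca and Pde4d, unlike that of Crem, depend on single libraries. Without WT splenic replicate 2, WT TIL replicate 1 or WT TIL replicate 2, Prkaca lost its call (adjusted p = 0.0906, 0.203 and 0.197), as Pde4d did. The log2 fold changes stayed at -2.47 to -2.20 and 1.65 to 2.35 with each library left out. Over all alternatives the adjusted p ran from 0.000323 to 0.203 for Prkaca and from 0.00302 to 0.357 for Pde4d. The count over all genes was 213 without WT splenic replicate 2 and 513 without WT TIL replicate 1. Melanoma genes were high in every TIL library and summed to at most 6.74 CPM in spleen, and their part in the tissue results was not tested.

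KO tumor against KO spleen asks the same for the libraries labelled KO. Crem rose, and Pde3b, Pde4a, Pde4b, Pde4d, Pde7a and Prkaca were higher in both TIL than in both splenic libraries. edgeR called 1 of the 9 genes higher and 0 lower, beside 0.803% and 0.543% of all genes tested (228 genes, with 5256 at an unadjusted p under 0.05). DESeq2 called 4 higher, Pde4a, Pde4b, Pde4d and Crem, and 0 lower, beside 12.8% and 6.41% of all genes. Libraries did not overlap for 6 of the 9 genes higher and for 1 lower (Creb1), beside 30.6% and 32.9% of all genes. The median of the 9 was 0.83, beside 0.01 over all genes.

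By edgeR, Pde4a, Pde4b and Pde4d had log2 fold changes of 2.20, 2.16 and 2.00 here, with adjusted p = 0.0797, 0.0750 and 0.0668. Without KO TIL replicate 1 or 2, Pde4b was at 1.32 or 2.69 and Pde4d at 2.43 or 1.39. Pde4a ran from 1.79 to 2.87 with each library left out. Over all alternatives the adjusted p ran from 0.00152 to 0.402 for Pde4a, from 0.000461 to 0.301 for Pde4b and from 0.000702 to 0.297 for Pde4d. The count over all genes was 0 without either KO splenic library, 3549 without KO TIL replicate 1 and 4958 without KO TIL replicate 2.

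The interaction between genotype and tissue asks whether the KO against WT difference differs between tumor and spleen. It was 3.16 log2 for Prkaca (SE 0.48, adjusted p = 0.177 by edgeR and 5.36e-05 by DESeq2), 2.03 for Pde7a (SE 0.63, adjusted p = 0.439; 2.49 or 1.35 without KO TIL replicate 1 or 2) and -1.15 for Crem (SE 0.44, adjusted p = 0.563). With each library left out, Prkaca ran from 2.999 to 3.31 and Crem from -1.32 to -0.94. For Prkaca the adjusted p ran from 5.36e-05 to 0.9999 over all alternatives. edgeR called 0 of the 9 genes, beside 0% of the 17870 tested, of which 1399 had an unadjusted p under 0.05. DESeq2 called 1 of the 9 higher, Prkaca, and 0 lower, beside 1.32% of all genes higher and 0.614% lower (309 genes). For Pde3b the interaction was 4.77 (SE 0.67), given with no test, and it ran from 4.36 to 5.38 with each library left out.

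In the order of levels per kilobase of exon, Prkar1a was first in all 4 groups, at 244 CPM per kb in KO spleen, 208 in WT spleen, 246 in KO tumor and 344 in WT tumor. In spleen Adora2a came next (20.9 CPM per kb in KO and 16.3 in WT). It was followed in KO by Pde4b, Crem, Prkaca and Creb1, and in WT by Crem, Prkaca, Pde4b and Creb1. These lay between 6.54 and 10.6 CPM per kb. Neighbours among these 4 overlapped in their libraries, except that Creb1 lay below the rest in KO. Pde7a, Pde4d, Pde3b and Pde4a were the lowest in spleen, at 0.169 to 1.98 CPM per kb, and Pde3b and Pde4a overlapped in KO.

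In tumor Crem moved to the next place after Prkar1a, at 63.0 CPM per kb in KO and 150 in WT, and Pde4b followed at 46.3 and 19.98. In KO the libraries of Crem and Pde4b overlapped, as did those of Adora2a and Prkaca and those of Pde4d and Pde7a. In WT those of Pde4b and Adora2a overlapped, as did those of Pde4a and Pde7a. Pde3b was lowest in WT tumor, at 0.488 CPM per kb. In KO tumor it was at 6.09 CPM per kb, between Prkaca (15.2) and Creb1 (5.77), and overlapped Creb1. Prkaca stood at 1.86 CPM per kb in WT tumor, between Pde4d (3.46) and Pde4a (0.919).

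GC content was looked at because earlier results of these data were known. In the richest 200-nt window of the longest GENCODE transcript, Pde7a had 85% GC, Prkaca 82.5%, Pde3b 82% and Pde4d 79.5%, while the other 6 genes had 58% to 74.5%. Over all genes, the 728 with 80% to 85% GC in that window differed by a median of 1.04 log2 in KO against WT TIL eTreg, beside -0.02 for the 4803 genes under 60%. In WT tumor against spleen the 726 genes of that class had a median of -0.71, and in KO tumor against spleen the 758 genes had 0.38. In spleen, KO against WT, the median of 716 such genes was -0.03. For the interaction, the median of 773 such genes was 1.12, beside 0.19 for the 5921 genes under 60%. The 160 genes with 85% or more had an interaction median of 0.96. The 151 genes with 85% or more, Pde7a among them, had a median of 0.56 in KO against WT TIL eTreg. Prkaca, Pde7a and Pde3b, all at 82% or more, had positive values in that comparison, and Pde4d, just under 80%, had -0.19. In WT tumor against spleen, Prkaca and Pde7a had negative values, and Pde3b (0.39) and Pde4d (1.93) positive ones. The part of GC content in these results was not tested.

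The wider pathway was taken as 14 lists with 128 genes, of which 127 were in the files (Creb5 was not). Pde3b, chosen by its values, is left out of the counts over these lists. In WT tumor against spleen, edgeR called 13 higher and 2 lower of 97 tested, beside 4.1% and 1.87% of all genes. Besides Crem and Pde4d, the genes that rose included Areg (4.57 log2, adjusted p = 0.00230), Mc1r (4.70, adjusted p = 0.0104), Rapgef3 (3.61, adjusted p = 0.0224), Pkia (5.19, adjusted p = 0.0238) and Sik1 (2.54, adjusted p = 0.0161). Rapgef3 encodes EPAC1, a cAMP sensor apart from PKA, Pkia an inhibitor of the PKA catalytic subunit, Mc1r the melanocortin receptor of melanocytes and Areg amphiregulin. Mc1r was at 0.0430 to 0.389 CPM in spleen and at 21.3 and 4.60 CPM in KO TIL and 12.5 and 4.35 CPM in WT TIL, beside melanoma sums that were high in the same libraries. Pkia was at 0.180 and 0 CPM in WT spleen and 3.52 and 3.58 CPM in WT TIL. Its log2 fold change ran from 4.32 to 9.67 with each library left out. The lower genes were S1pr1, a Gi-coupled egress receptor, and Prkaca. With each library left out, Areg held its call, while Mc1r and Pkia lost theirs without WT splenic replicate 2 (adjusted p = 0.1004 and 0.0771). Rapgef3 lost its call without either WT splenic library (adjusted p up to 0.0632), and Sik1 without WT splenic replicate 2 or WT TIL replicate 2 (up to 0.0594). The count of 15 became 4 without WT splenic replicate 2 and 8 without WT TIL replicate 1, beside 1.22% and 2.88% of all genes.

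In KO tumor against spleen, edgeR called 5 higher and 2 lower of 101 tested, beside 0.803% and 0.543% of all genes. Nt5e (CD73), which makes adenosine, fell by 3.71 log2 (adjusted p = 0.0366), and S1pr1 fell by 3.35 log2 (adjusted p = 0.0366). Nt5e was at 475 and 367 CPM in KO spleen, 430 and 106 CPM in WT spleen, 36.7 and 26.6 CPM in KO TIL and 172 and 216 CPM in WT TIL. The KO TIL libraries were the lowest for this gene. Without KO TIL replicate 1 or 2, Nt5e differed by -3.99 or -3.47 log2 and S1pr1 by -3.19 or -3.51. The count of 7 became 37 and 43 without these libraries, beside 19.7% and 26.8% of all genes, and 0 without either KO splenic library.

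By list, 8 of the 15 WT calls were response genes and 7 were not. These calls come from the fit with all WT libraries, and their number depended on single libraries, as given above. The shares over all genes to read these small lists against are 4.1% called higher and 1.87% lower by edgeR, 20.5% at an unadjusted p under 0.05, and 6.31% and 3.29% called by DESeq2. In WT tumor against spleen, the Gs-coupled receptors had 2 of 13 tested called higher (Adora2b and Mc1r) and the Gi-coupled receptors 1 of 6 lower. The G protein alpha subunits had 1 of 5 higher, Gnao1, with means of 0.900 CPM in WT TIL and 0 CPM in WT spleen. The PKA inhibitors had 1 of 3 higher. EPAC and Rap genes had 1 of 4 higher, cAMP phosphodiesterases 1 of 13, with Pde3b here among the 13, higher (Pde4d), PKA subunits 1 of 6 lower, CREB family factors 1 of 6 higher and CREB coactivators with SIK kinases 1 of 8 higher (Sik1). Adenylyl cyclases (4 tested), cGMP phosphodiesterases (2), A-kinase anchoring proteins (12) and adenosine genes with Abcc4 (7) had 0 called by edgeR in that comparison, with 0, 0, 2 and 1 genes at an unadjusted p under 0.05 and 0, 0, 2 and 1 called by DESeq2.

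Between KO and WT in TIL eTreg, edgeR called 0 of 99 genes tested, with 13 at an unadjusted p under 0.05, beside 9.87% of all genes. DESeq2 called Adrb1, Gnas, Prkaca and Prkar2a higher and Areg and Nt5e lower, beside 3.32% of all genes higher and 1.14% lower. Adrb1 averaged 0.171 CPM in WT TIL, near the floor. Gnas, the Gs alpha subunit, was at 226 and 281 CPM in KO TIL and 75.7 and 57.9 CPM in WT TIL (log2 fold change 1.92). Areg was at 38.1 and 18.0 CPM in KO TIL and 262 and 211 CPM in WT TIL (-3.08), and Nt5e differed by -2.62. Without KO TIL replicate 1 or 2, the values were 2.07 or 1.74 for Gnas, -3.71 or -2.65 for Areg and -2.87 or -2.42 for Nt5e. The Treg identity sums were lower in the same KO TIL libraries, and their part in the result was not tested.

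In spleen edgeR called 0 of 94 pathway genes, with 5 at an unadjusted p under 0.05, beside 2.95% of all genes. DESeq2 called 1 higher, Pde5a, a cGMP phosphodiesterase, beside 0.395% of all genes. Pde5a was at 13.8 and 5.96 CPM in KO spleen and 0.180 and 0 CPM in WT spleen. By edgeR its log2 fold change was 6.65 (adjusted p = 0.406), and it ran from 5.76 to 11.6 with each library left out. Without WT splenic replicate 1, edgeR called 20 pathway genes, beside 22.1% of all genes in that setting. The others at an unadjusted p under 0.05 were Adcy6 (-2.12), Pde8a (-1.45), Areg (-1.33) and Vipr2 (1.65). With each library left out, Adcy6 ran from -2.30 to -1.82 log2 and Pde8a from -1.80 to -0.87. Areg ran from -1.73 to -0.61 and Vipr2 from 1.01 to 2.91. In the interaction edgeR called 0 of 102 pathway genes, with 14 at an unadjusted p under 0.05, beside 7.83% of all genes. DESeq2 called Adrb1, Gnas and Prkaca higher and Pde5a and Nt5e lower, beside 1.32% and 0.614% of all genes.

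Of 13 genes that cAMP is known to induce, edgeR called 8 higher and 0 lower in WT tumor against spleen, beside 4.1% and 1.87% of all genes (median log2 fold change 2.07, beside -0.04). In KO it called 5 higher and 0 lower, beside 0.803% and 0.543% (median 2.56, beside 0.01). The WT count was 4 without WT splenic replicate 2, beside 1.22% of all genes called, and 5 without WT TIL replicate 1 or 2, beside 2.88% and 5.82%. The KO count was 0 without either KO splenic library, 10 without KO TIL replicate 1 and 12 without KO TIL replicate 2, the last 2 beside 19.7% and 26.8% of all genes called. Nr4a1, an orphan nuclear receptor, was at 40.4 to 100.8 CPM in spleen, 879 and 545 CPM in KO TIL and 954 and 999.8 CPM in WT TIL, and rose by 3.70 log2 in WT (adjusted p = 0.00458) and in KO (adjusted p = 0.0485). Nr4a2 was at 16.8 to 30.4 CPM in spleen, 504 and 675 CPM in KO TIL and 334 and 156 CPM in WT TIL, and rose by 3.14 log2 in WT (adjusted p = 0.00827) and 4.90 log2 in KO (adjusted p = 0.0332). Every TIL library exceeded every splenic one for both genes. Without KO TIL replicate 1 or 2, the KO values were 3.29 or 4.02 log2 for Nr4a1 and 5.08 or 4.71 for Nr4a2. In WT, Nr4a1 held its call with each library left out, and Nr4a2 lost it without WT splenic replicate 2 or WT TIL replicate 1 (adjusted p up to 0.0682). These genes also respond to other signals in T cells, such as antigen receptor engagement. Tumors, unlike spleens, were digested with enzymes before the sort, so tissue and preparation cannot be told apart here.

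Among the other response genes, Nr4a3 rose by 2.07 log2 in WT (adjusted p = 0.0217), a call that held without WT splenic replicate 1 and was lost without the others (up to 0.228). Rgs2, which restrains G protein signaling, rose by 3.003 log2 in WT (adjusted p = 0.00827) and 2.56 log2 in KO (adjusted p = 0.0374). Sik1, a kinase that holds CREB coactivators in the cytoplasm, rose by 2.71 log2 in KO (adjusted p = 0.0374). Without KO TIL replicate 1 or 2, the KO values were 2.71 or 2.40 log2 for Rgs2 and 2.49 or 2.91 for Sik1. The KO calls of Nr4a1, Nr4a2, Rgs2 and Sik1 held without either KO TIL library and were lost without either KO splenic library. Fos, Per1, Per2 and Dusp1 were not called by edgeR. In KO against WT TIL eTreg, 0 of the 13 were called by edgeR and 3 had an unadjusted p under 0.05, beside 0% and 9.87% of all genes. DESeq2 called 1 (Areg, lower), beside 3.32% of all genes higher and 1.14% lower, and the median was 0.02, beside 0.04.

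**Figure D3:**
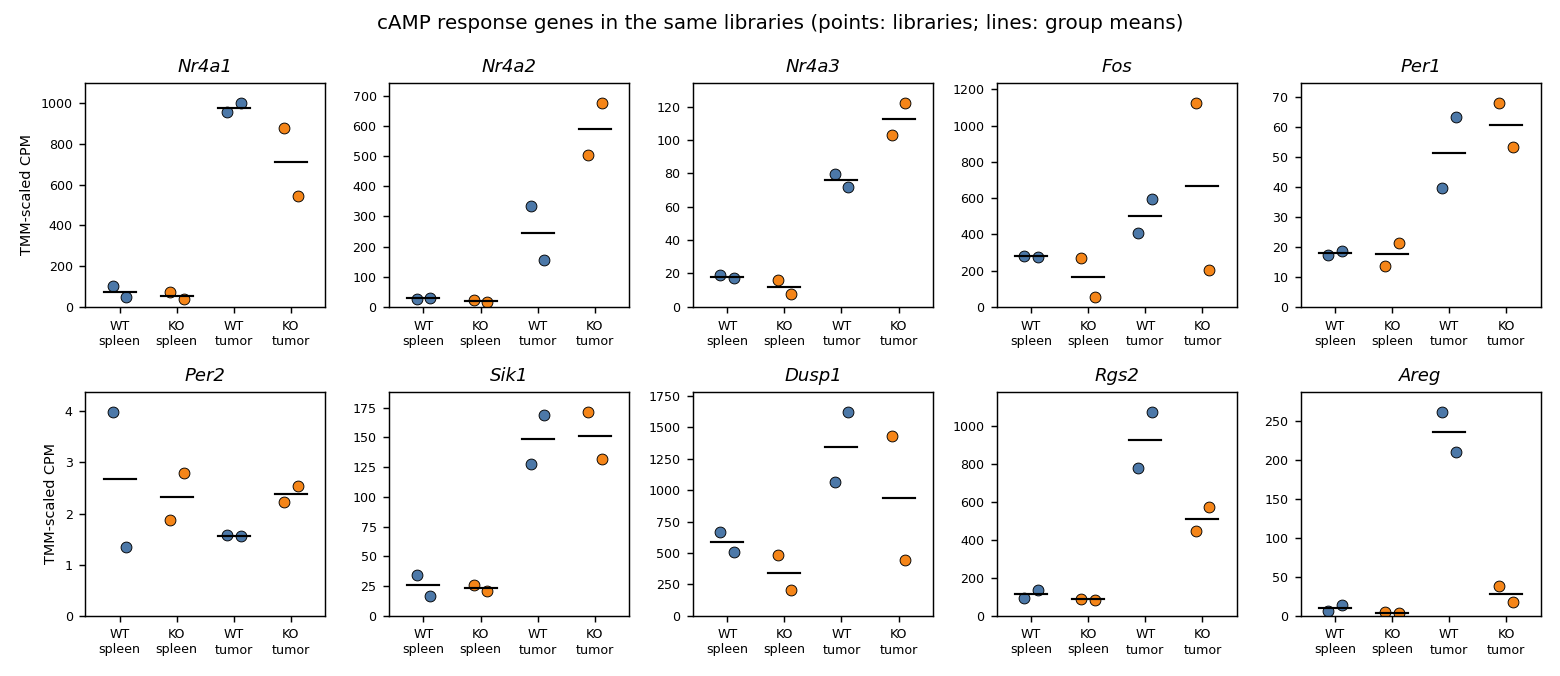
CPM of 10 cAMP response genes in each of the 8 libraries (points; WT blue, KO orange), with the group mean as a black line. Nr4a1 and Rgs2 are higher in every TIL library than in any splenic one, while Areg is highest in the 2 WT TIL libraries (262 and 211 CPM).

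RefSeq promoter windows of 300 bases (250 before to 50 after the start, GRCm38.p6) were at hand for 8 of the 10 response genes that are not among the cAMP signaling genes followed here, and all 9 windows of these genes held the core TGACG on either strand, which the CRE TGACGTCA contains. Of the 32851 windows searched, 20.8% held TGACG, 1.79% the CRE, 3.65% the forkhead motif GTAAACA and 8.63% the Blimp1 core AGNGAAAG. Of the cAMP signaling genes, 6 had windows among those searched, and 6 of their 17 windows, from Pde4a, Pde4b, Prkaca and Prkar1a, held TGACG. For Pde3b, Pde7a, Crem and Adora2a no window was searched here, so these counts say nothing about motifs in their promoters. A match is a description of letters and not a bound site. Shown 5′ to 3′, because their genes rose or fell with tumor, are the windows of Nr4a1 (chr15:101266596-101266895, plus strand), Nr4a2 (chr2:57123954-57124253, minus strand), Areg (chr5:91139349-91139648, plus strand) and Prkaca (chr8:83972728-83973027, plus strand). Capitals mark TGACG, or CGTCA where it lies on the other strand, and in Areg the whole CRE.
Nr4a1: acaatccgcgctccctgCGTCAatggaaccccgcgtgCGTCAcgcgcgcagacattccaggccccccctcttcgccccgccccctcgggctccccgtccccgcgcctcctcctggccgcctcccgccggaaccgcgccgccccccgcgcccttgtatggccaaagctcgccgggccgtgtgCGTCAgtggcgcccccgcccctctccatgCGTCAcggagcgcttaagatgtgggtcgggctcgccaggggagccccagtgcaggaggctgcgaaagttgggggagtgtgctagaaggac
Nr4a2: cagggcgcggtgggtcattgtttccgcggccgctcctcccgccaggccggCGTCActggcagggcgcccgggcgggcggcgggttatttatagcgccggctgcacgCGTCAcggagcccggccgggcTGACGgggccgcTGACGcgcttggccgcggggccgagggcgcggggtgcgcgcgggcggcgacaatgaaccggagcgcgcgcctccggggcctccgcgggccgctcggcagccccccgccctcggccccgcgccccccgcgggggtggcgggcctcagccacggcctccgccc
Areg: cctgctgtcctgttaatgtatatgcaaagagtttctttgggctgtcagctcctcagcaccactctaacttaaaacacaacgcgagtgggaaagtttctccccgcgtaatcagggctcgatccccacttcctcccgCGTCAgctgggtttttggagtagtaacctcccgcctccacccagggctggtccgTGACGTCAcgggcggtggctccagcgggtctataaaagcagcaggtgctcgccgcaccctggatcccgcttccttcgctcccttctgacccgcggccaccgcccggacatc
Prkaca: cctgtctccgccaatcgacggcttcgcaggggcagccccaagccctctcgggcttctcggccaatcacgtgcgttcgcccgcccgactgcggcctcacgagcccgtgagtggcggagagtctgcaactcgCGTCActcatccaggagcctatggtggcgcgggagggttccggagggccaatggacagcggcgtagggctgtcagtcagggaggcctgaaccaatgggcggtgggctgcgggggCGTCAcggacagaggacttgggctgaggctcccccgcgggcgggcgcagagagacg

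The genes most like Pde3b were sought by Pearson correlation of log2 CPM (prior count 2) over the 8 libraries, among 17869 other genes. The libraries share group and depth, so r is a description. Among the highest were Lrrc9 (r = 0.983), Atp2b2 (0.976), Ppm1h (0.972) and Lmo1 (0.969), and the lowest were B4galnt4 (-0.984), Trav4-2 (-0.983), Tmem64 (-0.980), Itgae (-0.978) and Trbv2 (-0.974). Lrrc9, Atp2b2 and Lmo1 had few counts, at 0 to 1.87 CPM. Ppm1h, a phosphatase, was at 28.5 to 35.0 CPM in spleen, 72.6 and 73.3 CPM in KO TIL and 39.6 and 32.1 CPM in WT TIL. Itgae, the CD103 integrin chain of tissue T cells, was at 27.5 and 16.5 CPM in KO TIL and at 109 to 342 CPM in the other libraries.

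Of the lineage genes, Cd8b1 (r = 0.955) and Cd8a (0.939) ran with Pde3b, and Cd4 (-0.926) and Foxp3 (-0.896) ran against it. Among the cAMP signaling genes, r with Pde3b was 0.781 for Pde4b, 0.729 for Pde4a, 0.638 for Pde4d, 0.514 for Crem, 0.500 for Pde7a and 0.363 for Prkaca. It was -0.01 for Prkar1a, -0.175 for Adora2a and -0.589 for Creb1.

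The 10 genes lie on 10 different chromosomes of GRCm38. Pde3b spans chr7:114415281-114539251 on the plus strand, with 15 merged exons and 9114 bp of exon. Prkaca spans chr8:83972993-83996443 on the plus strand with 2488 bp of exon, and Crem spans chr18:3266048-3337748 on the minus strand with 5895 bp.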

How the data were processed

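RNA-seq of 8 sorted eTreg libraries was processed by the authors with Trimmomatic 0.36, STAR 2.5.2b on GRCm38 and featureCounts of Subread 1.5.2. The deposited values used here are raw counts per gene. Strand of counting is not stated, and the table of normalized counts was not used here. In R 4.3.3, edgeR 4.0.16 (limma 3.58.1) fitted quasi-likelihood models to the 4 libraries of each comparison (all 8 for the interaction), with TMM scaling, filterByExpr (minimum count 10) and Benjamini-Hochberg adjustment over all genes tested. Standard errors are the log2 fold change divided by the root of F. DESeq2 1.42.0 (Wald) was an alternative, beside its size factors, TMM within each tissue, no filter, no fold change threshold, a replicate block, all 8 libraries in a common fit, and each library left out. The pipeline was tested on simulated data with 200 genes changed by 3 log2. In these, edgeR recovered 44.5% in KO against WT TIL eTreg, 73% in spleen and 17.5% in the interaction. Recovery was 65% in WT and 68% in KO tumor against spleen. Unchanged genes were also called, 11, 5, 5, 6 and 20 of them in the same order. Named genes were the 10 themselves, per comparison up to 10 called genes of the pathway lists by adjusted p (where none, up to 5 by unadjusted p without overlap), the 5 most and least like Pde3b (1 of them is not reported here), and Foxp3, Prdm1, Cd4 and Cd8a. Others, such as Adora2b, Gnao1, Adrb1, Prkar2a and Cd8b1, were named after their values were seen. The genes and lists were chosen with earlier results of these data known.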

Additional observations from a re-analysis of the deposited data

Results flagged for a closer look

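For 3 of the 10 genes, the groups did not overlap in both tissues or in both genotypes and differed there in opposite directions, as did 7.48% of the 17870 genes tested. Pde3b, which is among the 3, was chosen by its values. The others are Pde7a and Prkaca, and all 3 had 82% to 85% GC in their richest 200-nt window. Over the 773 genes with 80% to 85% GC there, the median interaction was 1.12 log2. The part of GC content was not tested. For Pde3b the interaction was 4.77 log2: both KO TIL libraries were above both WT TIL libraries, and both KO splenic libraries were below both WT splenic libraries. The difference was not tested, since Pde3b was chosen by these values. For Pde7a the interaction was 2.03 log2: KO was above WT in tumor and below it in spleen, and TIL were below splenic libraries in WT and above them in KO. Tumor against spleen in KO, Pde7a differed by 0.83 log2, and by 1.29 or 0.17 without KO TIL replicate 1 or 2. The interaction did not pass the test (edgeR adjusted p = 0.439). It was 2.49 without KO TIL replicate 1 and 1.35 without KO TIL replicate 2. For Prkaca it was 3.16 log2: both WT TIL libraries were below, and both KO TIL libraries above, the splenic libraries of their genotype. It did not pass by edgeR (adjusted p = 0.177) and did by DESeq2 (adjusted p = 5.36e-05, with a range of 5.36e-05 to 0.9999 over all alternatives).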

How the results depend on the processing

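The number of called genes changed with the settings, and the 10 genes are counted here with Pde3b, whose passing is no test of it. KO against WT in TIL eTreg, 0 genes were called by edgeR, 745 by DESeq2, 1072 with no filter on low counts, 728 with replicate number as a block and 135 with all 8 libraries in a common fit, and in each of these 4 alternatives 2 of the 10 genes passed (Prkaca, with Pde3b). With each library left out it stayed at 0. In spleen the 0 became 75 by DESeq2, 167 with no filter, 101 with the block and 21 to 3972 with each library left out, the highest without WT splenic replicate 1. WT tumor against WT spleen gave 981 genes, 1784 by DESeq2, 1922 with no filter and 213 to 1401 with each library left out, with 1 to 3 of the 10 called there. KO tumor against KO spleen gave 228 genes, 3788 by DESeq2, 3183 with no filter, 1743 with all 8 libraries and 0 to 4958 with each library left out. Of the 10, edgeR called 2 there, DESeq2, no filter and all 8 libraries called 5 each, the block 1, and leaving out each library 0 to 6. The interaction gave 0, 309 by DESeq2 and 752 with no filter, each of these with 2 of the 10, and stayed at 0 with each library left out. In an alternative chosen after seeing the data, each library was left out for the lists without Pde3b. In spleen, where 0 were called, this gave 0 to 1 response genes and 1 to 20 pathway genes, the highest beside 22.1% of all genes. In WT tumor against spleen, 8 response genes became 4 to 8 and 15 pathway genes 4 to 18, beside 1.22% to 7.87% of all genes. In KO, 5 response genes became 0 to 12 and 7 pathway genes 0 to 43, beside 0% to 26.8%. The cause was not tested.

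The block pairs libraries that share only a replicate number. Within each comparison, the deviations of such libraries from their group means correlated weakly across genes (r = 0.234, 0.155, -0.02 and -0.22). Under the block the KO tumor against spleen value of Prkar1a was -0.0059 in place of 0.02, and Crem lost its call there (adjusted p = 0.0529, with a range of 2.95e-12 to 0.163). Of the log2 fold changes of the 10 genes under alternatives that kept all libraries, 219 kept direction and side of the threshold, 18 newly passed it and 2 no longer did. With each library left out, 198 kept both, 7 newly passed, 8 no longer passed, 25 changed sign and 2, both of Pde3b, moved by more than their SE.

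The values that changed sign had not passed the test. In TIL eTreg, KO against WT, Pde4d ran from -0.86 to 0.25, Adora2a from -0.66 to 0.39 and Pde4a from -0.26 to 0.50. In spleen Pde4a ran from -0.39 to 0.69, Crem from -0.27 to 0.073, Pde4d from -0.57 to 0.21, Prkar1a from -0.0024 to 0.57 and Creb1 from -0.13 to 0.52. In WT tumor against spleen Creb1 ran from -0.19 to 0.37 and Adora2a from -0.10 to 0.62. In KO, Prkar1a ran from -0.29 to 0.29 and Adora2a from -0.78 to 0.21. In the interaction Pde4a ran from -0.58 to 0.48, Pde4d from -0.58 to 0.50 and Adora2a from -1.01 to 0.023. A group left with a single library is assumed to vary like the other. Of 80 group levels under other scalings, 74 stayed within 1 SD of the replicates. With 2 libraries a group, and floors of 0.0644 to 0.112 CPM, splenic Pde4a and Pde3b rest on 34 to 106 counts per library.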
